A study of Manis javanica with 3 samples.

Results

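Keratins are the intermediate filament proteins of epithelial cells. A filament is built from pairs of 1 acidic type I and 1 basic type II keratin, so each type is normally made together with the other. Simple, single-layered epithelia such as gland ducts and hepatocytes use keratins 8 and 18, and some of them, such as ducts, add 7, 19, 20 or 23. Stratified epithelia use keratins 5 and 14 in the basal layer and others above it, and the hair follicle and hard appendages use a further set. Pangolin scales are keratin structures of the skin, but no skin or scale was sampled here.

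The keratin genes of the Malayan pangolin (Manis javanica) were taken as every gene whose entry in the NCBI non-redundant protein database (NR) names a type I or type II keratin and which is listed in the expression tables. This rule gave 56 of 24220 genes, 27 of type I and 29 of type II. By the number in the product name, 6 were simple epithelial, 24 stratified epithelial and 26 hair keratins, and the hair keratins were split into 7 of the root sheath and 19 of the hair shaft. The Swiss-Prot entry of 55 of these genes also named a type I or type II keratin, but its number was the same for 32 genes only, so the number identifies the closest described protein and not a proven counterpart. For example, the gene named keratin 18 in NR was matched to keratin 19 in Swiss-Prot, and the gene named keratin 4 was matched to keratin 75.

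The samples were small intestine, salivary glands and liver from 1 adult female, a wild animal that died while being rescued, and RNA was sequenced as 1 library for each tissue. The first is called the intestine-labelled library here, for the reason given below, and comparisons that name small intestine refer to it. The 3 libraries held 10158924, 8318686 and 14568778 counts on genes, in that order. With 1 library per tissue there is no measure of the spread between animals or samples, so no test was made, and every interval below is a 95% interval for counting error only. A count of 0 allows up to 3 counts, which is 0.295 counts per 1e6 in the intestine-labelled library, 0.361 in the salivary library and 0.206 in the liver library. In whole tissue, fewer cells of a type and less RNA per cell cannot be told apart.

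The labels were checked against marker genes before the keratins were read. The liver library held the hepatocyte genes, with a summed level of 1480 FPKM (fragments mapped per kilobase of transcript, scaled to library depth) over 4 genes, against 109 in the intestine-labelled library and 121 in the salivary library. Most of the sum in the intestine-labelled library was ALB, at 89.1 FPKM. Nearly all of the sum in the salivary library was SERPINA1, at 120 FPKM. TTR was low in the liver library too, at 6.77 FPKM. The library labelled small intestine had few or no reads of most genes that define enterocytes. FABP2, LCT and CDX1 had no read, SI (sucrase-isomaltase) had 2 counts, APOA4 had 17 and ANPEP had 26, while CDX2 was not matched by name. FABP1 had no read in any library, the liver library included, so its 0 is not informative. FABP2 and LCT also had no read in any library, so no library here shows that they can be detected. Of the 8 enterocyte markers found by name only VIL1 exceeded 1 FPKM in the intestine-labelled library. The 14 gastric gland entries, for 11 gene names, summed to 122200 FPKM there, against 93.4 in the salivary library and 2.53 in the liver library. It also held smooth muscle genes at high levels, with MYH11 at 638 FPKM. In the salivary library 4 of the 9 salivary markers were found by name, with AQP5 at 94.3 FPKM but BPIFA2 at 2 counts and LPO at 6 counts. AQP5 was at 2.29 FPKM in the intestine-labelled library and 24.7 FPKM in the liver library. KIT, the fourth marker, had 128 counts in the intestine-labelled library, 91 in the salivary library and 2 in the liver library.

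Expression was first counted by threshold. Of the 56 genes, 22 exceeded an FPKM of 1, the study's threshold of expression, in at least 1 library (69.3% of all genes did so). The intestine-labelled library had 21 keratin genes above this level (59.4% of all genes), the salivary library had 10 (56.3%) and the liver library had 6 (57.0%). The level exceeded 1 in all 3 libraries for 5 genes, in the intestine-labelled library alone for 11 genes, in the salivary library alone for 0 genes and in the liver library alone for 1 gene. The matching shares of all genes were not computed, so these counts have no background to be read against. No read was found in any library for 21 genes, 16 hair and 5 stratified keratins, while 13.0% of all genes had no read. The remaining 13 genes had reads but stayed below the threshold, with a highest count of 33. The members just inside and outside it were keratin 10 (gene19681) at 1.14 FPKM and keratin 2 (gene14284) at 0.933 FPKM, both in the liver library.

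The libraries differed in which class made up their keratin reads. Stratified keratins took 0.396% of all counts in the intestine-labelled library (Wilson interval 0.392 to 0.3999%), 0.0343% in the salivary library (0.0331 to 0.0356%) and 0.000776% in the liver library (0.000645 to 0.000932%). Simple keratins took 0.0273% (0.0263 to 0.0283%), 0.107% (0.105 to 0.110%) and 0.0873% (0.0858 to 0.0888%) in the same order. The stratified class was therefore the larger in the intestine-labelled library, and the simple class in the other libraries. Hair keratins held 242 counts in the intestine-labelled library, 26 in the salivary library and 5 in the liver library. On the per-length scale, simple keratins summed to 187, 462 and 468 FPKM and stratified keratins to 2624, 132 and 22.4 FPKM, in the order small intestine, salivary glands and liver. Without the 3 genes under 500 bases the stratified sums were 2096, 110 and 2.31 FPKM, since 20.1 of the 22.4 FPKM of the liver library came from newGene_13656, a short keratin 10 locus without a keratin entry in Swiss-Prot.

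**Figure D1:**
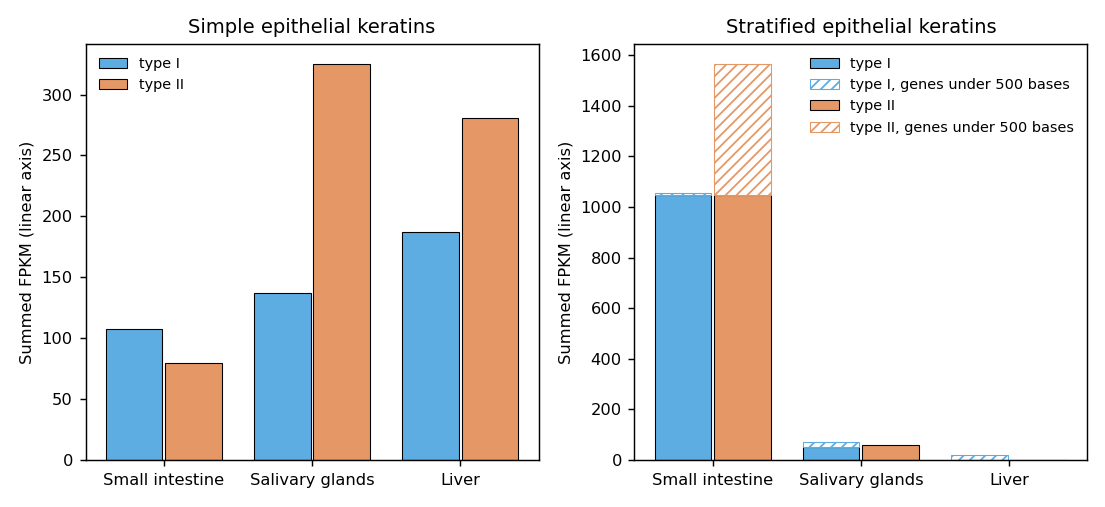
Summed FPKM (linear axes) of the type I and type II keratins of simple and stratified epithelia in each of the 3 libraries, with hatched parts for genes under 500 bases. The simple keratins sum to 187, 462 and 468 FPKM and the stratified keratins to 2624, 132 and 22.4 FPKM in the intestine-labelled, salivary and liver libraries.

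Since filaments need both types, the summed FPKM of type II was set against that of type I within each library. For simple keratins the ratio was 0.736 in the intestine-labelled library, 2.38 in the salivary library and 1.497 in the liver library. Keratin 7, a type II keratin of ducts, held 197 of the 325 FPKM of type II among the salivary values. For stratified keratins the ratio was 1.48, 0.847 and 0.0519. This ratio depended on 3 genes under 500 bases, and without them it was 1.002, 1.21 and 0.918. The liver value of 0.918 rests on 10 counts of type I and 45 of type II. Of the type I counts, 8 were of keratin 10 (gene19681), whose liver FPKM was 3.82 times the value computed from count and length. These counts are too few to show whether the 2 types were balanced in the liver library. The deposited FPKM of all genes under 500 bases was 2.12, 1.40 and 1.78 times the value computed from count and length (medians in the intestine-labelled, salivary and liver libraries), against 1.28, 0.883 and 1.14 times for genes of at least 1000 bases.

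Among simple keratins, 8 and 18 were the pair with reads at high levels in all 3 libraries. Keratin 8 (gene14296, type II) had 995 counts in the intestine-labelled library, 2398 in the salivary library and 7280 in the liver library, which is 66.5, 128 and 266 FPKM. Keratin 18 (gene14298, type I), its usual partner, had 1164, 1557 and 4998 counts in the same order, or 78.9, 86.7 and 185 FPKM. Both were highest in the liver library, where they made up 95.7% of all keratin counts. Hepatocytes are known to use this pair. The FPKM of keratin 8 over that of keratin 18 was 0.843, 1.48 and 1.43. The level of keratin 8 ranked 245 and that of keratin 18 ranked 326 among all genes of the liver library.

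Keratin 7 (gene10005, type II), found in ducts and glands, stood out in the salivary library. It had 173 counts in the intestine-labelled library, 4029 in the salivary library and 374 in the liver library, or 12.7, 197 and 15.2 FPKM. The salivary gland value was the highest of all keratins in that library and ranked 213 among all its genes, and the other 2 libraries lay close to each other. On its scaffold the gene spans keratin 80 (gene10007) on the opposite strand, with 332, 219 and 10 counts. The libraries did not keep strand, so reads of the 2 genes cannot be told apart where they overlap.

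Keratins 19 and 23, type I keratins of ducts and other simple epithelia, were low in the liver library and higher in both others. Keratin 19 (gene5491) had 146, 335 and 15 counts, or 10.9, 19.8 and 0.559 FPKM, in the intestine-labelled, salivary and liver libraries. Keratin 23 (gene19678) had 291, 607 and 48 counts, or 17.7, 30.4 and 1.74 FPKM. Both had the order salivary glands, small intestine, liver. Keratin 20 (gene19679), a type I keratin of the gut lining and of the stomach surface, had 1 count in the intestine-labelled library and none elsewhere. The sum over 7 entries for 4 bile duct marker genes other than keratins had the order of keratins 19 and 23, at 60.8, 347 and 33.8 FPKM. The CFTR entry gene20826 did not follow that order, at 0.211, 11.1 and 0.569 FPKM. The part of these markers in the keratin levels was not tested.

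**Figure D2:**
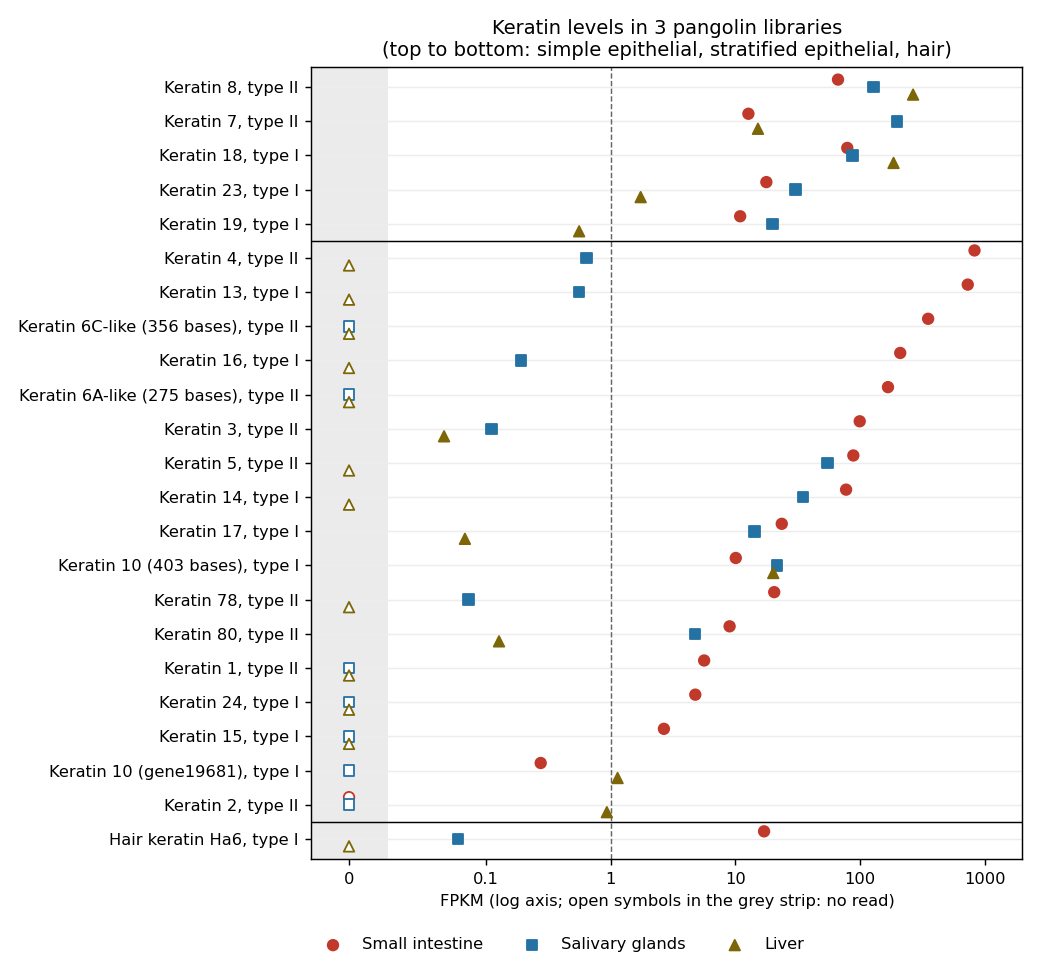
FPKM (log axis) of the 22 keratin genes above 1 FPKM in at least 1 of 3 libraries and of keratin 2, the gene with the highest count below that; open symbols in the grey strip had no read and the dashed line marks 1 FPKM. Keratin 4 reaches 825 FPKM and keratin 13 reaches 729 FPKM in the intestine-labelled library, while neither has a read in the liver library.

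The stratified keratins of the intestine-labelled library were led by keratins 4 and 13, the pair of the upper layers of wet stratified epithelia such as oesophagus and mouth. Keratin 4 (gene14291, type II) had 17685 counts in the intestine-labelled library, 17 in the salivary library and 0 in the liver library, or 825, 0.638 and 0 FPKM. Keratin 13 (gene5493, type I) had 11910, 12 and 0 counts, or 729, 0.560 and 0 FPKM. The 2 genes made up 73.6% of the stratified keratin counts of the intestine-labelled library and ranked 82 and 92 by FPKM among all its genes. Their FPKM ratio was 1.13 there.

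Keratins 16 and 3 and the fragments named keratin 6 had the same pattern. Keratin 16 (gene11206, type I), a keratin of mucosa and of stressed skin, had 3301, 4 and 0 counts in the intestine-labelled, salivary and liver libraries, or 210 FPKM in the first. Keratin 3 (gene14290, type II), described from the cornea, had 2104, 3 and 2 counts, or 99.2 FPKM in the first. The gene named keratin 6C-like (gene26399, 356 bases) had 511 counts and the one named keratin 6A-like (newGene_5154, 275 bases) had 131 counts in the intestine-labelled library, and neither had a read elsewhere. Their FPKM of 351 and 167 was 2.48 and 3.56 times the value computed from count and length, and reads of closely related type II genes may have been shared among them.

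Of the 7 keratins with at least 1000 counts in the intestine-labelled library, 4 had salivary counts near 0.1% of the counts there, and the others, keratins 18, 5 and 14, had 133.8%, 79.02% and 58.5%. The salivary count was 0.0961% of the small intestine count for keratin 4 (exact Poisson interval 0.0560 to 0.154%), 0.101% for keratin 13 (0.0521 to 0.176%), 0.121% for keratin 16 (0.0330 to 0.310%) and 0.143% for keratin 3 (0.0294 to 0.417%). The 12 gastric gland marker entries with at least 1000 counts in the intestine-labelled library had shares of 0.0403 to 0.258%, with a median of 0.0984%. The shares of keratins 4, 13, 16 and 3 lay within the range of the gastric genes; the source of these salivary reads was not tested.

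The basal pair of keratins 5 and 14 behaved otherwise and had reads in both the small intestine and salivary gland libraries. Keratin 15, also of basal cells, did not, with 37, 0 and 0 counts in the intestine-labelled, salivary and liver libraries. Keratin 5 (gene14280, type II), the basal layer keratin, had 1940, 1533 and 0 counts in the intestine-labelled, salivary and liver libraries, or 88.2, 55.0 and 0 FPKM. Keratin 14 (gene11205, type I), its partner, had 1266, 741 and 0 counts, or 77.1, 34.9 and 0 FPKM. In the salivary library these 2 genes made up 79.7% of the stratified keratin counts, at an FPKM ratio of 1.58, against 1.14 in the intestine-labelled library.

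Keratin 17 and keratin 80 went with the basal pair. Keratin 17 (gene11207, type I), a keratin of basal and myoepithelial cells, had 332, 273 and 2 counts, or 23.5, 14.2 and 0.0679 FPKM. Keratin 80 (gene10007, type II), described from many epithelia, had 332, 219 and 10 counts, or 8.99, 4.75 and 0.127 FPKM, with the overlap with keratin 7 named above. Keratins 14, 16 and 17 are close relatives that lie next to each other on 1 scaffold, so their counts may be shared to an unknown extent. TP63, the transcription factor of basal cells, was at 1.78, 0.624 and 0.0166 FPKM, and ACTA2, a smooth muscle and myoepithelial actin, was at 130, 111 and 2.65 FPKM. The other markers of that list were far lower in the salivary library than in the intestine-labelled one, with CNN1 at 623, 32.4 and 0.346 FPKM, MYH11 at 638, 41.1 and 0.299 FPKM, and OXTR at 5, 0 and 0 counts. Their part in the keratin values was not tested.

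The other stratified keratins above the threshold were low. Keratin 78 (gene14293) had 430, 2 and 0 counts, keratin 1 (gene14285), of cornifying skin layers, had 131, 0 and 0, keratin 24 (gene19686) had 83, 0 and 0, and keratin 15 (gene5492), of basal cells, had 37, 0 and 0 counts. These 4 genes were at 20.5, 5.62, 4.77 and 2.67 FPKM in the intestine-labelled library. Keratin 10, the partner of keratin 1, was named for 2 loci. The longer, gene19681, had 1, 0 and 8 counts, and passed the threshold in the liver library on those 8 counts, since its FPKM was 3.82 times the value computed from count and length. The shorter, newGene_13656 (403 bases), had 19, 49 and 58 counts, or 10.1, 21.6 and 20.1 FPKM, and is the 1 member with no keratin entry in Swiss-Prot.

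Keratin 2, an upper skin layer keratin, had reads in the liver library alone. It (gene14284) had 0, 0 and 33 counts, and 33 counts is the highest count of any gene below the threshold. The 4 mesothelium markers found by name, of the cell layer that covers the liver, summed to 0.398, 1.28 and 5.20 FPKM in the intestine-labelled, salivary and liver libraries. WT1 and MSLN were highest in the liver library, at 3.21 and 1.37 FPKM, whereas CALB2 was highest in the salivary library (1.23 against 0.592 FPKM in liver) and LRRN4 in the intestine-labelled library (0.201 against 0.0245 FPKM in liver). Their part in this value was not tested. Keratin 2 oral-like (gene14289) had 14 counts in the intestine-labelled library alone. The other 11 genes below the threshold that had reads had at most 8 counts in any library.

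Of the hair keratins, 1 of 26 passed the threshold in at least 1 library (69.3% of all genes). Hair keratin Ha6 (gene5494, type I), of the hair shaft, had 237 counts in the intestine-labelled library, 2 in the salivary library and 0 in the liver library, or 16.98, 0.0596 and 0 FPKM. It lies on the scaffold next to keratin 13, and its other neighbour, Ha5 (gene5495), had 4, 0 and 0 counts. In the salivary library 7 of the 19 hair shaft genes had reads, with a sum of 26 counts and a highest count of 8. The other 12 had no read there (22.7% of all genes). The 7 root sheath genes had 1, 0 and 1 counts in the 3 libraries. Hair shaft and root sheath genes were thus at or near 0 in all libraries apart from Ha6.

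Gene order was compared with level, as keratins of one type lie in tandem in mammals. Of the 56 genes, 53 lay on 7 scaffolds with at least 3 keratin genes each. The scaffold NW_016537779.1 (keratin genes from 16575 to 346724; the genome build is not named in the sources used here) carried 14 genes, the type II genes from keratin 5 to keratin 8 and, next to keratin 8, the type I keratin 18, an order known from other mammals. On it 7 genes passed the threshold, and the 3 adjacent root sheath genes 71, 72 and 73 had at most 1 count. The scaffold NW_016530409.1 (25173 to 136821) carried 9 type I genes in the order 19, 15, 13, Ha6, Ha5 and 4 more hair shaft genes. The first 4 of these passed the threshold in the intestine-labelled library and the last 5 did not. The scaffold NW_016530131.1 (9043 to 96985) carried 6 type II hair shaft genes, 0 of which passed.

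**Figure D3:**
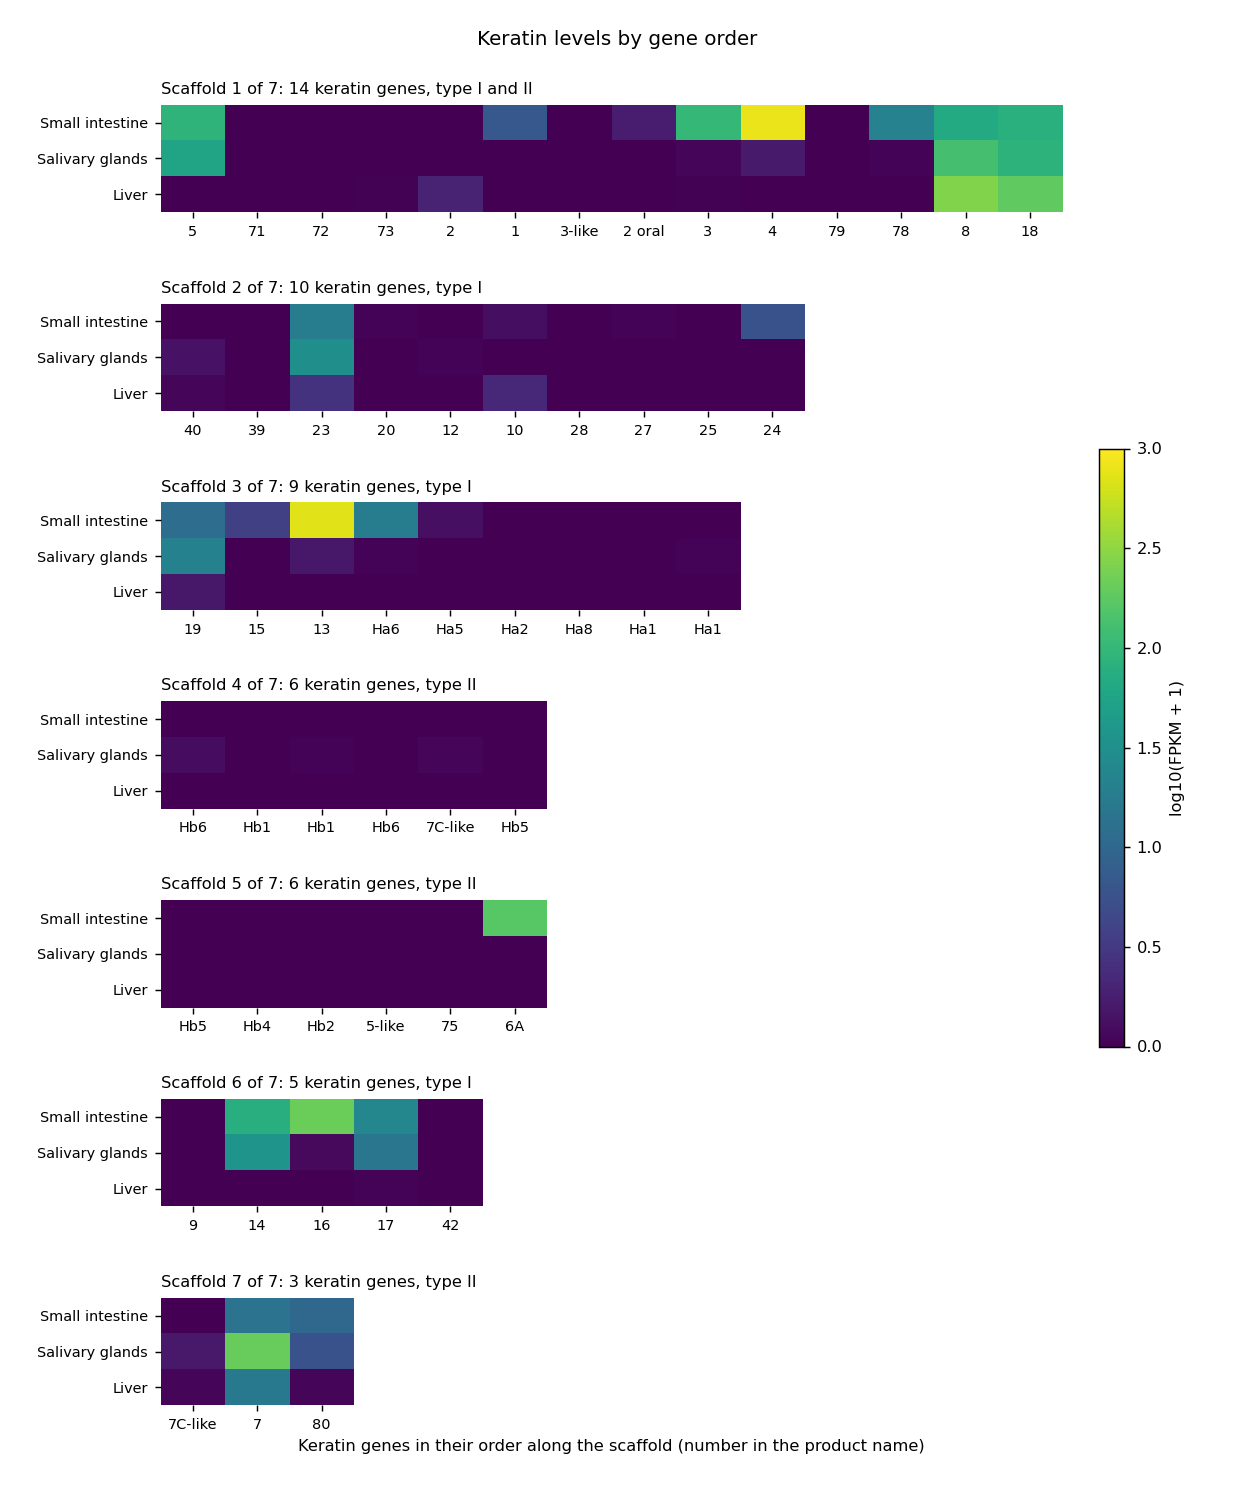
Heat maps of log10(FPKM + 1) for 53 keratin genes in their order along 7 scaffolds (columns, named by the number in the product name) in the 3 libraries (rows). The 6 hair shaft genes of the fourth scaffold stay near 0 in all libraries. On the third scaffold keratin 13 reaches 729 FPKM in the intestine-labelled library, and its neighbour Ha6 is far lower, at 16.98 FPKM.

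Pairs of libraries were then compared on counts scaled by the trimmed mean of M values (TMM). A gene was called higher or lower when its ratio was at least 2-fold (log2 of 1) with at least 10 counts in the higher library, and counts of 0 to 2 were set to 3. Between salivary glands and small intestine, 22 keratin genes had enough counts, and 4 were higher in salivary glands (16.7% of all genes tested were) and 12 lower (20.8% of all genes). The median log2 ratio of the 22 genes was -3.10, against 0.007 over all genes. By FPKM ratio the split was 2 higher and 13 lower.

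The genes higher in salivary glands than in small intestine were keratin 7, with a log2 ratio of 4.36 (counting interval 4.14 to 4.59), the short keratin 10 locus at 1.19 (0.40 to 2.04), keratin 8 at 1.09 (0.98 to 1.2) and keratin 19 at 1.02 (0.74 to 1.31). Of these, keratins 8 and 19 were below 1 by FPKM ratio, at 0.94 and 0.86. Keratin 18, at 0.24, and keratin 23, at 0.88, did not reach the threshold, though with counts scaled by library totals keratin 23 was past it at 1.35. Of the 5 simple keratins compared, 3 were thus higher and 0 lower on TMM-scaled counts (16.7% and 20.8% of all genes).

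Among the 16 stratified keratins compared, 11 were lower and 1 higher in salivary glands (20.8% and 16.7% of all genes). Keratin 4 had a log2 ratio of -10.20 (-10.98 to -9.52), keratin 13 of -10.13 (-11.09 to -9.33) and keratin 16 of -9.87 (-11.74 to -8.51). Keratin 3, with 3 salivary counts, was 793-fold higher in small intestine (271 to 3848). With the salivary count of 0 set to 3, keratin 6C-like was 193-fold higher in small intestine, and keratin 6A-like and keratin 1 were 49.4-fold higher. On the same floor keratin 24 was 31.3-fold, keratin 15 13.95-fold and keratin 2 oral-like 5.28-fold higher. The counting bounds of the log2 ratios were -7.29 for keratin 6C-like and -5.31 for keratins 6A-like and 1. They were -4.64 for keratin 24, -3.43 for keratin 15 and -1.91 for keratin 2 oral-like. The 4 stratified genes past no threshold were keratin 5 at -0.52, keratin 14 at -0.95, keratin 17 at -0.46 and keratin 80 at -0.78. By FPKM ratio keratin 14 was at -1.15 and so past it.

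Between salivary glands and liver, 13 keratin genes had enough counts, and 9 were higher in salivary glands (22.9% of all genes tested) and 3 lower (24.9%). Of the 9, keratins 4 and 13 rest on 17 and 12 salivary counts, which are about the same share of their counts in the intestine-labelled library as for gastric genes, and without them, an alternative chosen after seeing the data, 7 are higher. The median log2 ratio was 4.02, against -0.069 over all genes. With counts scaled by library totals the split was 9 higher and 1 lower, and with upper quartile scaling it was 9 and 2. Keratin 19 had a log2 ratio of 5.07 (4.33 to 5.92), keratin 23 of 4.25 (3.83 to 4.71) and keratin 7 of 4.02 (3.87 to 4.18). With the liver count of 0 set to 3, keratin 5 was 769-fold and keratin 14 was 372-fold higher in salivary glands. The lower counting bounds of their log2 ratios were 9.29 and 8.24. Keratin 18, at -1.09, and keratin 8, at -1.01, were higher in liver, but close to the threshold, and both fell short of it with total scaling, at -0.87 and -0.79. Keratin 8 also fell short with upper quartile scaling, at -0.94.

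Between small intestine and liver, 23 keratin genes had enough counts, and 18 were higher in small intestine (24.2% of all genes tested) and 3 lower (23.9%). The median log2 ratio was 6.21, against -0.079 over all genes. With the liver count of 0 set to 3, keratin 4 was 9979-fold, keratin 13 6720-fold, keratin 16 1863-fold and keratin 5 1095-fold higher in small intestine. The lower counting bounds of their log2 ratios were 12.99, 12.42, 10.56 and 9.80. The genes lower in small intestine were keratin 8 at a log2 ratio of -2.11 (-2.21 to -2.02), keratin 18 at -1.34 (-1.44 to -1.25) and keratin 2. For keratin 2 the fold was 6.50 with its small intestine count of 0 set to 3, and the counting bound in log2 was -2.32. Keratin 7, at -0.35 (-0.62 to -0.09), did not reach the threshold.

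**Figure D4:**
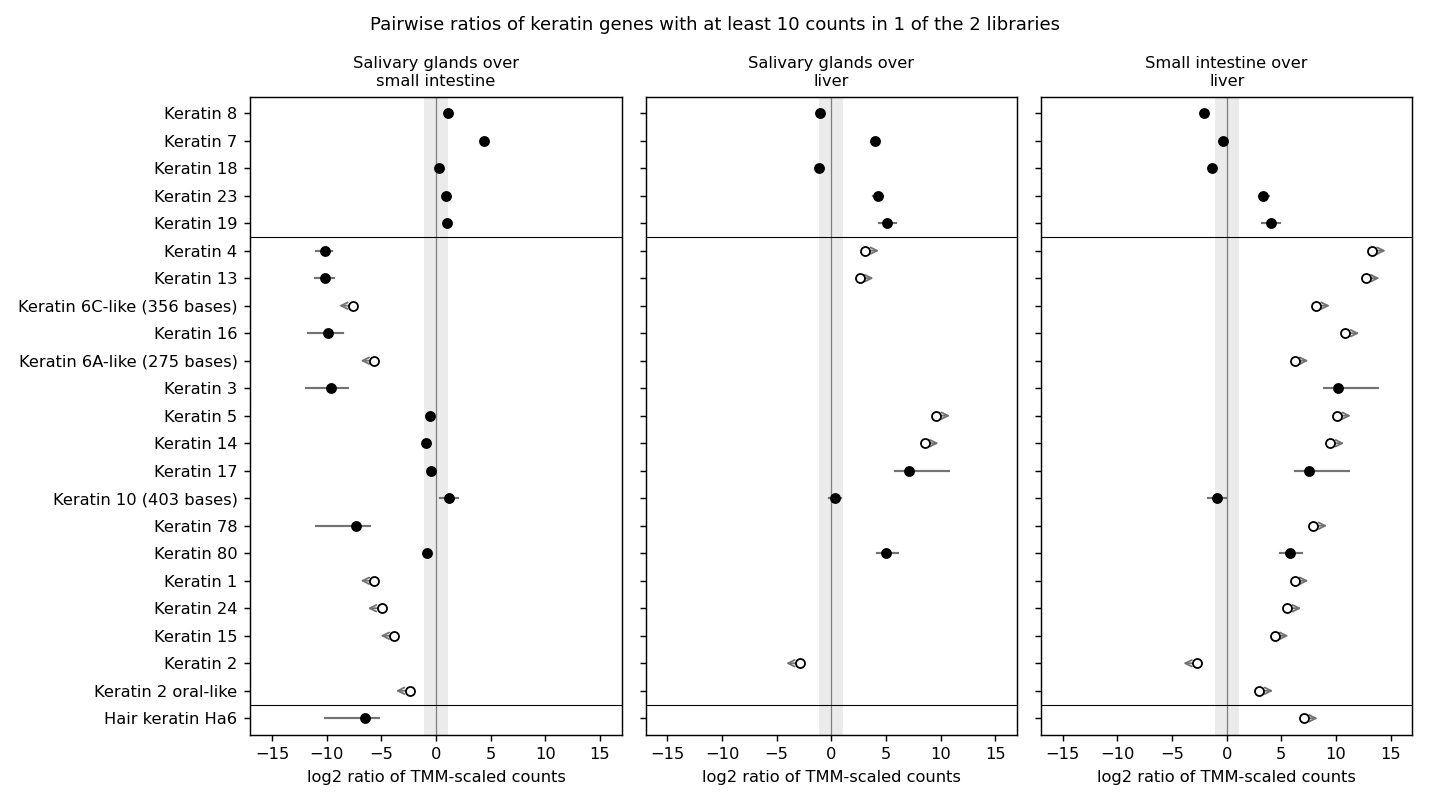
log2 ratios of TMM-scaled counts for the keratin genes with at least 10 counts in 1 of the 2 libraries of each comparison; lines are 95% counting intervals, open points with arrows are bounds where 1 library had no read, counts of 1 or 2 are set to 3, and the grey band marks ratios under 2-fold. Keratin 7 stands at 4.36 in salivary glands over small intestine, and keratins 4, 13 and 16 at -9.87 or below.

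Genes that work with keratin filaments, other intermediate filament genes and epithelial regulators were read from lists matched by product name. Some gene names matched more than 1 entry, and each entry is counted as a gene in the list counts. The desmosome list had 16 entries for 14 names, the hemidesmosome list 27 for 9 and the cornified envelope list 22 for 16. Desmosomes anchor keratins at cell contacts. Of 15 desmosomal genes compared, 3 were higher and 4 lower in salivary glands than in small intestine, near the all-gene shares (16.7% and 20.8%). Against liver, 12 of 12 were higher in salivary glands (22.9% of all genes) and 13 of 15 in small intestine (24.2%). The median log2 ratio of the list was -0.20 for salivary glands over small intestine, 1.71 for salivary glands over liver and 2.13 for small intestine over liver, beside the medians of all genes given above, which were near 0. PERP, a desmosome-linked membrane protein, was at 98.5, 146 and 25.5 FPKM in the intestine-labelled, salivary and liver libraries. PKP1, a plakophilin of stratified epithelia, was at 59.7, 0.681 and 0.0208 FPKM. It shared the order of the upper layer keratins, and PERP did not.

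Hemidesmosomes anchor keratins 5 and 14 to the basement membrane. Of 21 genes compared between salivary glands and small intestine, 7 were higher and 3 lower in salivary glands (16.7% and 20.8% of all genes). Against liver, 18 of 21 were higher and 1 lower in salivary glands (22.9% and 24.9% of all genes). In small intestine 19 of 22 were higher and 0 lower (24.2% and 23.9% of all genes). The list medians were 0.31, 3.29 and 3.28 in the same order of comparisons. CD151, a tetraspanin of these junctions, was at 157, 250 and 55.4 FPKM. PLEC (gene9544), the plectin linker, was at 66.5, 16.03 and 20.3 FPKM.

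The cornified envelope is the protein shell of flat surface cells that also use keratins 1 and 10. Of 20 genes compared, 0 were higher and 15 lower in salivary glands than in small intestine (16.7% and 20.8% of all genes). Between small intestine and liver, 19 of 20 were higher in small intestine (24.2% of all genes). Against liver, 4 of 7 were higher and 0 lower in salivary glands (22.9% and 24.9% of all genes). The list medians were -4.78, 1.71 and 5.66. Their summed level was 977, 55.0 and 17.4 FPKM. KRTDAP, a secreted keratinocyte protein, was at 226 FPKM and CSTA, the protease inhibitor cystatin-A, at 194 FPKM in the intestine-labelled library, and both had no read in the salivary library. The squamous epithelium markers other than keratins were 10 entries for 8 gene names. Of these, 9 were above 1 FPKM in the intestine-labelled library (59.4% of all genes), 2 in the salivary library (56.3%) and 1 in the liver library (57.0%). Their sums were 451, 24.2 and 10.6 FPKM, and their part in the keratin values was not tested. The genes LOR, TCHH, HRNR, CRNN and several SPRR genes of the list were not matched by name.

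The basal and epithelial regulators, which are mostly transcription factors, had 6 of 16 genes higher and 5 lower in salivary glands than in small intestine, where 16.7% of all genes were higher and 20.8% lower. Both libraries stood above liver, with 13 of 14 and 14 of 16 genes higher (22.9% and 24.2% of all genes). The list medians were 0.32, 3.75 and 3.60. ELF3, an ETS factor of epithelia, was at 60.5, 67.8 and 12.8 FPKM. KLF4, a zinc finger factor of differentiating epithelia, was at 46.2, 48.3 and 7.56 FPKM.

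Intermediate filament genes other than keratins had those of muscle at the top in the intestine-labelled library, and the lamin LMNA in the salivary library (29.3 FPKM) and in the liver library (59.0 FPKM). Of 15 genes compared, 1 was higher and 7 lower in salivary glands than in small intestine (16.7% and 20.8% of all genes). Between small intestine and liver, 13 of 15 were higher in small intestine (24.2% of all genes). Against liver, 7 of 12 were higher and 1 lower in salivary glands (22.9% and 24.9% of all genes). The list medians were -0.87, 1.13 and 2.14. DES, the desmin of muscle, was at 754, 9.86 and 0.205 FPKM. SYNM, its partner synemin, was at 145, 4.27 and 3.003 FPKM. In the intestine-labelled library desmin was thus at a level close to those of keratins 4 and 13.

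**Figure D5:**
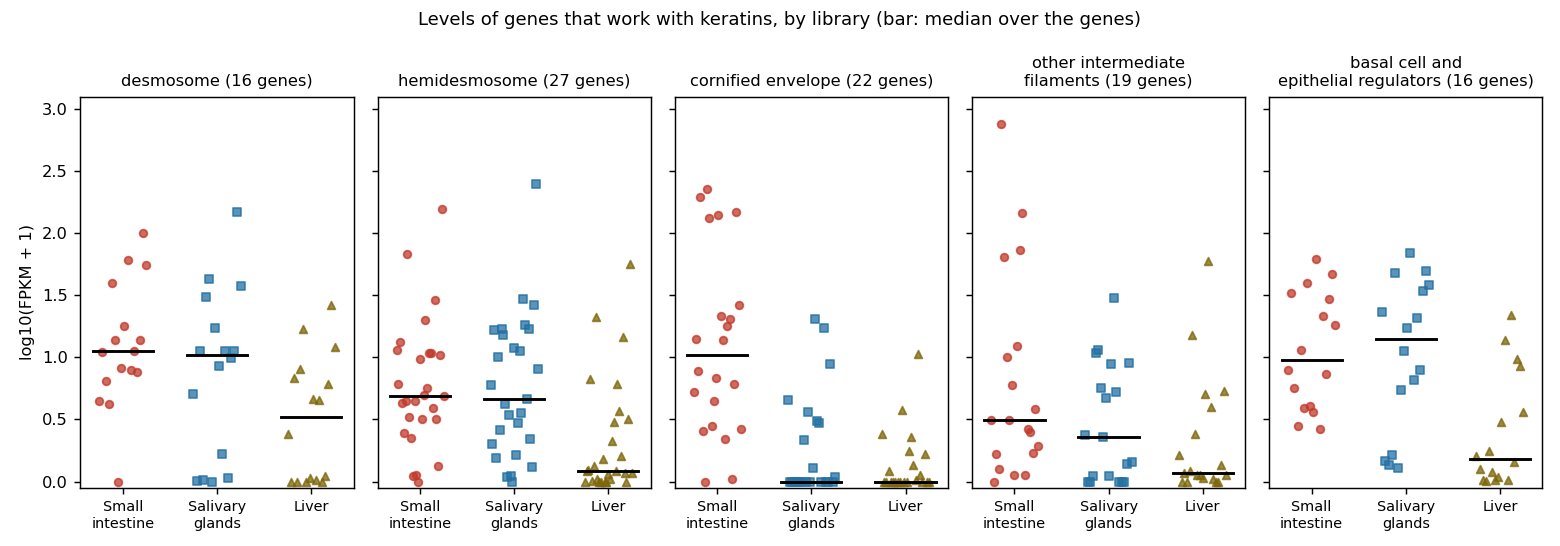
log10(FPKM + 1) of each gene entry (points) of 5 lists in the 3 libraries, with a bar for the median over the entries of a list. The lists hold genes that work with keratins, other intermediate filament genes, and epithelial regulators. The cornified envelope genes sum to 977 FPKM in the intestine-labelled library and to 55.0 and 17.4 FPKM in the salivary gland and liver libraries.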

How the data were processed

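Paired-end RNA-seq (Illumina HiSeq) was done on 3 tissues, and the report uses all 3 libraries. The authors cleaned the reads and aligned them with TopHat2, without strand and with up to 2 mismatches, to the M. javanica genome; the build, the aligner version and the tool that made the counts are not given in the sources used here. The deposited counts are raw whole counts per gene, and the FPKM values were computed by the authors, whose methods name RSEM. A deposited normalized score, the count multiplied by 1 factor per library, was not used.

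Genes were matched by NR product name and scaled in pairs by TMM (R 4.3.3, edgeR 4.0.16); tables were made in Python 3.11.15. The study compared pairs of libraries with DEGseq, which measures read sampling alone, so its test was not repeated. The calling steps were tested on simulated data. The keratin genes and lists were chosen with earlier results of these data known. The matching of list and marker genes by product name was set after their values were seen, because Swiss-Prot symbols often stood for paralogs. Named genes were all keratins above 1 FPKM in at least 1 library, the one with the highest count below, and the 2 genes of highest FPKM in each list; marker genes and the few other keratins named were chosen after their values were seen. Alternatives were other scalings and thresholds, TPM and Swiss-Prot membership.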

Additional observations from a re-analysis of the deposited data

How the results depend on the processing

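The numbers of keratin genes above 1 FPKM in the 3 libraries stayed within 1.5 times under every alternative run. So did the numbers past the fold in the 3 comparisons, with higher and lower genes added together. Split by direction, some moved more. Genes higher in salivary glands than in small intestine went from 4 to 1 at a log2 fold of at least 2, and to 2 by FPKM ratio. Genes lower in salivary glands than in liver went from 3 to 1 at that fold, and also to 1 with total scaling. Relative to TMM, scaling by total counts moved all log2 ratios by 0.47 (salivary glands over small intestine), 0.22 (salivary glands over liver) and -0.24 (small intestine over liver), and the FPKM ratio moved their median by -0.09, -0.11 and -0.01. The summed level of simple keratins was 261, 774 and 752 on the TPM scale in the intestine-labelled, salivary and liver libraries, and with classes from Swiss-Prot, which counts keratin 23 as keratin 17, it was 169 and 432 FPKM in the first and second. Of 141 log2 ratios of named keratins recomputed, 28 left their counting interval and 5 called ones fell below the fold. No called ratio changed sign, whereas keratin 17, which was not called between salivary glands and small intestine, went from -0.46 to 0.01 with total scaling. Leaving out genes under 500 bases, an alternative chosen after seeing the data, changed the type II to type I ratio as given above. No replicate could be left out, and no paired analysis was possible because each tissue had 1 library. Depth limits what a count of 0 shows to the floors given above.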

Other observations

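Keratin-associated proteins, the matrix proteins in which hair keratins are embedded, were looked up by their NR name after the data were seen. Of 24 such genes, 20 had no read in any library (13.0% of all genes), and the highest count was 5. In the intestine-labelled library 2 of them were above 1 FPKM (59.4% of all genes). These were gene21374 at 1.86 FPKM on 5 counts and gene22130 at 1.02 FPKM on 2 counts. Their counts summed to 7 in the intestine-labelled library, 5 in the salivary library and 1 in the liver library. The hair keratin Ha6, with 237 counts in the intestine-labelled library, was thus found beside keratin-associated proteins of at most 5 counts.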
